A study of Mus musculus with 16 samples.

Results

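The translatome of resting cells was described from the 2 untreated libraries of a ribosome profiling study, by setting the ribosome footprints on each mRNA against the input RNA of the same lysate. Genes were taken where the untreated input library held at least 50 counts, which left 8533 of the 13832 genes listed. At the edge of this minimum, 24 genes held exactly 50 input counts and 29 held 49, among them Atp5s with 50 input and 62 footprint counts and Atg12 with 49 and 128.

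The cells were RAW264.7, a mouse macrophage-like line grown in culture with no engineered allele named in the labels. The resting groups were untreated, and the other 14 libraries came from cells exposed to LPS, the lipopolysaccharide of Gram-negative bacteria, at 100 ng/ml for 15, 30, 45, 60, 75 or 90 min or 16 h. Cytoplasmic lysates were made with cycloheximide, which stalls ribosomes on the mRNA; footprints were the RNase I-resistant fragments of the monosome fractions, and input was alkaline-fragmented cytoplasmic RNA. Each of the 16 groups held 1 library.

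During translation, an 80S ribosome protects a short stretch of mRNA from nuclease, so the number of footprints on an mRNA relative to its abundance is a measure of how many ribosomes it carries. Loading is set mostly at initiation: upstream start codons in a 5′ leader divert scanning ribosomes, a pyrimidine tract at the 5′ end (the TOP motif of ribosomal protein mRNAs) ties loading to growth signals, and iron regulatory proteins block ferritin mRNAs. Mitochondrial mRNAs are translated by separate ribosomes inside the organelle, and selenoprotein mRNAs are decoded through an in-frame UGA that otherwise means stop.

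Relative density is used here for the log2 ratio of footprint to input counts, centred so that the median of the 8533 genes is 0; it compares mRNAs with each other and holds no absolute number of ribosomes. Library totals were the same to within 2 counts in all 16 libraries (6702930 to 6702932), so they say nothing of the sequencing depth. Intervals are 95% exact (Clopper-Pearson) intervals that take the deposited counts as read counts, and at most they cover counting error. Whether the counts were rescaled to reach this common total was not tested. If they were, the intervals would not measure counting error, and the tests on counts would be affected too. With 1 library per group at rest there is no replicate check, no test and no p-value for a resting value; the 7 LPS pairs served as separate libraries in which the same measure could be examined. All 8 macrophage markers were found in the untreated input, with 16857 counts in sum, led by lysozyme Lyz2 with 7348. The 3 fibroblast and 2 epithelial markers listed had 0 counts, the 2 lymphocyte markers had 1 count each, and the 5 osteoclast markers summed to 105, of which Dcstamp held 69.

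Sequence features known for some of the classes described below are shown next; their part in the values was not tested. The in-frame TGA (UGA in the mRNA) of selenoprotein genes is in capitals within a stretch of coding sequence, from GENCODE M21 on GRCm38 (mm10), ordered by its position as a share of the coding length, from the earliest to the latest. The coordinates of Sepw1 and Selt span an intron.
Sephs2, chr7:127273719-127273745, minus strand: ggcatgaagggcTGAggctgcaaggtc
Sepw1, chr7:15920452-15922256, minus strand: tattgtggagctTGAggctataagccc
Gpx1, chr9:108339439-108339465, plus strand: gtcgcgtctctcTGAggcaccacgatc
Selt, chr3:58576869-58585252, plus strand: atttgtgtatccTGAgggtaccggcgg
Gpx4, chr10:80054725-80054751, plus strand: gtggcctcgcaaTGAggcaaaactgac
Sep15, chr3:144590633-144590659, plus strand: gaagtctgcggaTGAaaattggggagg
Msrb1, chr17:24740146-24740172, plus strand: caatcaagattcTGAatatttagcagc
Vimp, chr7:66088832-66088858, plus strand: tcatctggcggcTGAaactaagactct
Txnrd1, chr10:82896025-82896051, plus strand: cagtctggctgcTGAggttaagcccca

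Upstream start codons of 2 stress-response mRNAs are shown because their leaders are textbook examples of reading frames that divert ribosomes. Capitals mark the upstream ATG. The third window of Atf4 spans an intron.
Atf4 upstream ATG 1, chr15:80255293-80255315, plus strand: cttttctctcATGgggcctttag
Atf4 upstream ATG 2, chr15:80255572-80255594, plus strand: tgcggccaccATGgcgtattaga
Atf4 upstream ATG 3, chr15:80255671-80256214, plus strand: ggcctaagccATGgcgctcttca
Ppp1r15a upstream ATG 1, chr7:45526222-45526244, minus strand: cgcgtggacgATGttggcgcaga
Ppp1r15a upstream ATG 2, chr7:45526178-45526200, minus strand: ggaagattacATGcgatatcccg
Ppp1r15a upstream ATG 3, chr7:45526077-45526099, minus strand: tgagggcgacATGaacccgctgg

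Start regions of 6 ribosomal protein genes with a run of at least 8 pyrimidines show the tract that defines a TOP mRNA. Capitals mark the longest run that begins within 5 bases of an annotated start, in 30 bases from RefSeq on GRCm38.p6. The genes are ordered by input counts. Their resting densities were -0.62 (Rps6), -0.49 (Rps15a), -0.50 (Rpl27a), -0.03 (Rpl15), -0.02 (Rps10) and -0.46 (Rpl18), so Rpl15 and Rps10 stood near the median gene.
Rps6, chr4:86857349-86857378, minus strand: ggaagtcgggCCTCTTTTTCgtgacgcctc
Rps15a, chr7:118116128-118116157, minus strand: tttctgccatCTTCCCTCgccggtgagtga
Rpl27a, chr7:109519181-109519210, plus strand: acttcgtgagCTCCTCCCTTTTCCCTTTCT
Rpl15, chr14:18270971-18271000, minus strand: tgggagaaagCCTTCTTCCTTTCCTCTggc
Rps10, chr17:27635228-27635257, minus strand: gccgcgcacgCCCCTTCCTTTCCagcctcc
Rpl18, chr7:45718062-45718091, plus strand: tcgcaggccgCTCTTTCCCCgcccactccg

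Ribosomes at rest were spread over many mRNAs, and the protein synthesis machinery, the actin cytoskeleton, chaperones and splicing factors took the largest class shares. By footprint counts, 580 genes held 50% of the library, against 685 genes for 50% of the input. Cytosolic ribosomal proteins led with 6.58% of footprint counts (95% interval 6.56 to 6.60) from 76 genes. They held 9.88% of input counts, so their share of ribosomes was 0.667 times their share of RNA. Actin cytoskeleton genes (49) followed with 3.71% of footprints and 2.02% of input, other TOP mRNAs (25, mostly translation factors) with 3.53% and 4.46%, and cytosolic and mitochondrial chaperones (26) with 3.27% and 2.44%. The splicing regulators of the hnRNP and SR families (54) held 3.15% and 1.75%, and glycolysis (18) 2.50% and 1.66%. Some genes sit in more than 1 class, so shares are not to be added.

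The mRNA with the most footprints was Eef1a1, which encodes the elongation factor that brings aminoacyl-tRNA to the ribosome, with 73932 footprint and 121783 input counts. Next were Pkm (the glycolytic pyruvate kinase) with 70582 and 49247, Actb (cytoplasmic β-actin) with 43844 and 22433, and the constitutive chaperone Hspa8 with 43257 and 46818. The nucleolar proteins Npm1 and Ncl followed with 42537 and 39679 footprints on 29026 and 14222 input counts. The 15 genes with the most footprints took 7.84% of that library, and the 15 with the most input took 10.1% of theirs; 6 genes were in both. The order depends on length. Per kilobase of coding sequence, the highest footprint levels were those of the actin-binding thymosin Tmsb4x (82756 counts per kilobase) and prothymosin Ptma (75929), followed by the cyclophilin Ppia (53707), Eef1a1 (53227), Npm1 (48392) and Pkm (44224). The macrophage secretory protein Lyz2 held 35514 footprint counts per kilobase, close to Actb with 38869.

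**Figure D1:**
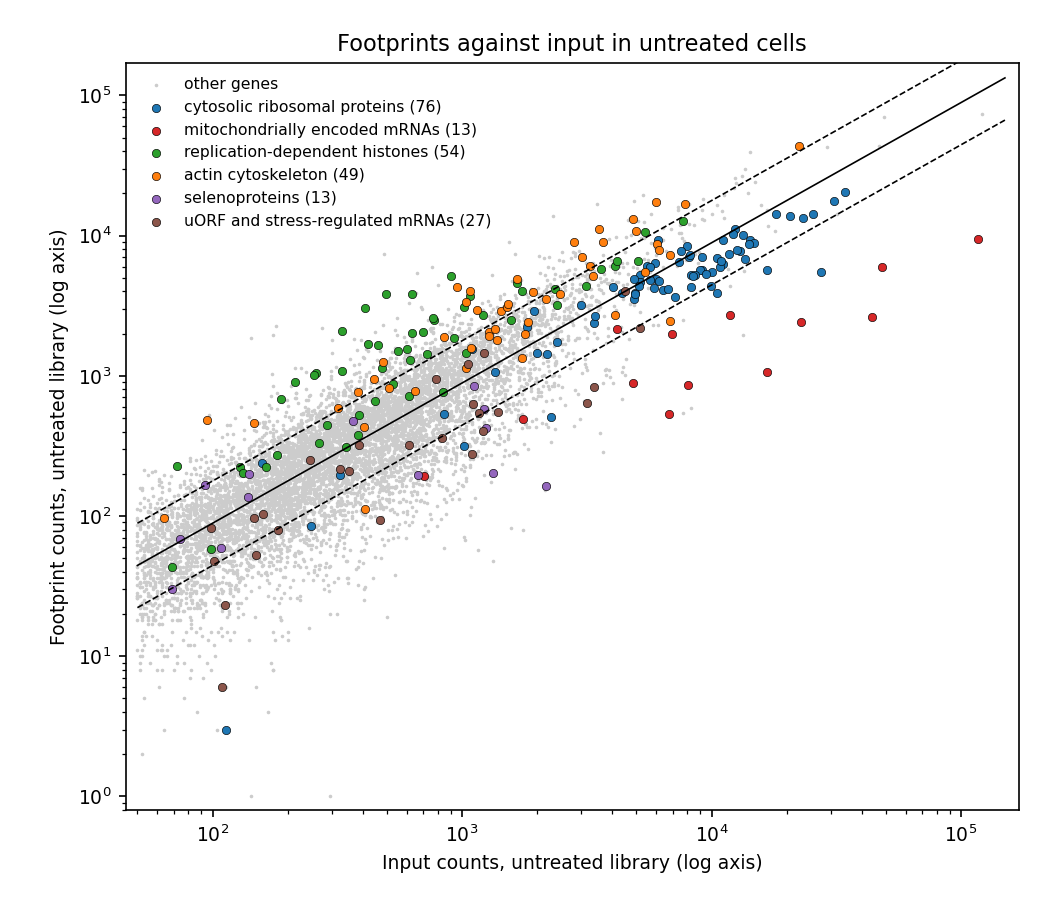
Input counts (x axis, log scale) against footprint counts (y axis, log scale) of the eligible genes in the untreated libraries; grey points are other genes, coloured points 6 gene classes, the solid line the median gene and the dashed lines a fold of 2 on either side. The 13 mitochondrially encoded mRNAs lie below the solid line, and ribosomal protein mRNAs lie mostly between it and the lower dashed line; 1 gene with 0 footprints is not drawn.

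Around the median gene, relative density had an SD of 0.98 over genes, with a 10th percentile of -1.38 and a 90th of 0.98. By the point ratio, 812 genes (9.52%) stood at least 2-fold above the median gene and 1414 (16.6%) at least 2-fold below it. Of these, 507 and 885 had their whole counting interval beyond a fold of 2. With scaling by total counts in place of the median gene, the split was 542 high and 1778 low. The extremes rested on few counts on 1 side: the complement regulator Cd59b held 296 input and 1 footprint count. Aoc2, with 66 input counts, was the only gene with 0 footprints, set to 3 for its density (-4.29, with an upper interval bound of -3.95). Among the highest were the calcium-binding S100a11 with 142 input and 1849 footprint counts, and the prolyl isomerase Fkbp1a with 180 and 2260. Of the coding 29-mers of S100a11 11.2% were unique, so its counts are uncertain. Cd59b, Aoc2, S100a11 and Fkbp1a were picked out after their values were seen.

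Among the classes, replication-dependent histones, which package newly made DNA, had the highest median relative density, 1.17, with 29 of 54 at least 2-fold above the median gene and 0 below. The list also holds H1f0, which stands in the list of replication-independent variants too. For each class, the shares to set such counts against are 9.52% high and 16.6% low over all eligible genes. The linker histones Hist1h1b and Hist1h1d had 7713 and 5409 input counts and 12735 and 10679 footprints, densities of 0.90 and 1.15. Hist1h2ap was highest, at 3.13, on 495 input and 3844 footprint counts. Many of these genes are near copies: 45 of the 54 had under 50% of their coding 29-mers absent from other transcripts, and the median of the others was 0.86. Histone coding sequences are also short, and against genes of the same decile of coding length the class median was 0.48.

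Actin cytoskeleton mRNAs had a median of 1.07, with 26 of 49 at least 2-fold high and 2 low. Besides Actb (1.14), the actin-severing cofilin Cfl1 had 6011 input and 17217 footprint counts (1.69, 1.65 to 1.73), Tmsb4x 3545 and 11172 (1.83, 1.77 to 1.88), and Tmsb10 95 and 480 (2.51, 2.19 to 2.84). Tmsb10 had no unique coding 29-mers, so its counts are uncertain. The Arp2/3 subunit Arpc1a was the lowest, with 408 and 112 (-1.69, -2.01 to -1.39). The hnRNP and SR family stood at 0.87, with 23 of 54 high and 1 low, Son, a large SR-related protein of nuclear speckles, with 3769 and 1119 (-1.58). Against genes of like coding length these medians were 0.76 and 0.79.

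Energy and protein quality-control mRNAs stood above the median gene by smaller margins. Nuclear-encoded subunits of respiratory complex I had a median of 0.78 (10 of 37 high, 0 low) and those of complexes II to V 0.75 (18 of 41 high, 0 low), led by the complex III subunit Uqcrq with 301 input and 1792 footprint counts (2.75, 2.57 to 2.93). Proteasome subunits stood at 0.74 (9 of 41 high, 0 low), glycolytic enzymes at 0.72 (4 of 18 high, 0 low) and lysosomal proteins at 0.70 (11 of 52 high, 0 low). Atp6v0c, the proton-pore subunit of the vacuolar ATPase, was the highest of the lysosomal genes with 175 input and 1967 footprint counts (3.66, 3.44 to 3.89); only 6.82% of its coding 29-mers were unique, so its counts are uncertain. Respiratory subunits are short proteins. At like coding length complex I stood at 0.14 and complexes II to V at 0.28, while glycolysis stayed at 0.67 and lysosomal proteins at 0.57. Under 50% of coding 29-mers were unique in 8 of 18 glycolytic genes and 12 of 41 genes of complexes II to V. For complex I and lysosomal proteins these counts were 5 of 37 and 5 of 52.

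**Figure D2:**
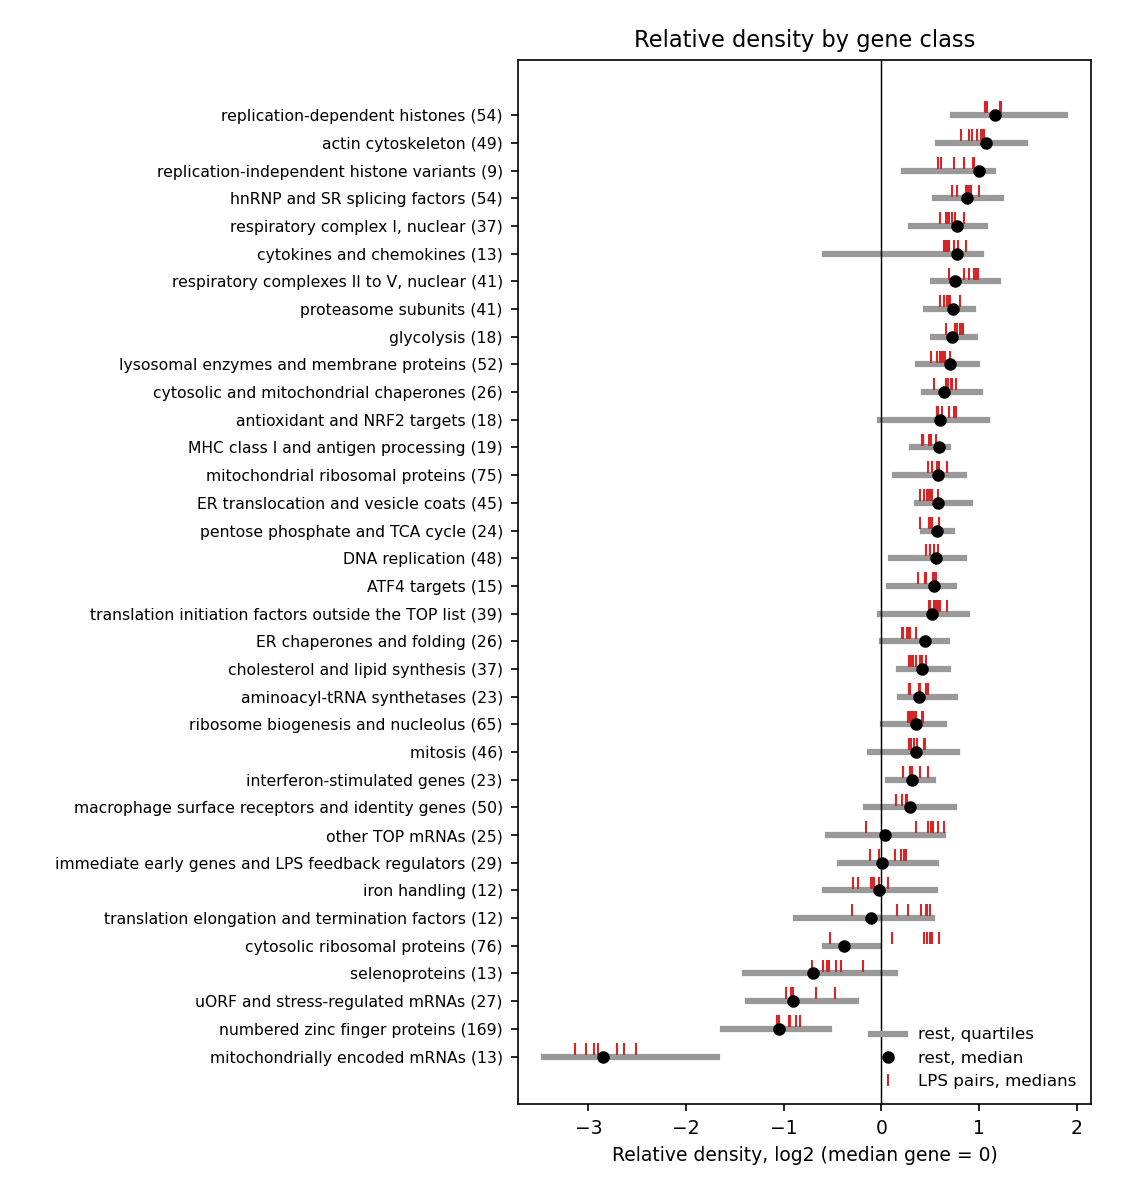
Relative density of 35 gene classes (x axis, log2, median gene at 0; number of eligible genes in brackets); black points are the class medians at rest, grey bars the quartiles over genes, and red ticks the class medians in the 7 LPS pairs. Mitochondrially encoded mRNAs are lowest at -2.85 and replication-dependent histones highest at 1.17, and in the ribosomal protein and TOP classes most red ticks lie to the right of the black point.

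The lowest relative density of the classes was that of the 13 mRNAs encoded in the mitochondrial genome. Their median was -2.85, with 12 of 13 at least 2-fold low. They are translated by separate ribosomes inside the organelle. How far footprints from the monosome fractions of cytoplasmic lysates capture those ribosomes was not tested, so these values cannot be read as loading. Under 50% of the coding 29-mers were unique in 7 of the 13, and the median of the others was -1.81. They held 4.38% of input counts and 0.467% of footprint counts. The cytochrome oxidase subunit mt-Co1 was second only to Eef1a1 by input counts, with 116754 input and 9417 footprint counts (-3.46, -3.49 to -3.43). Its partners mt-Co2 and mt-Co3 had 48165 and 44166 input and 5916 and 2625 footprint counts, densities of -2.85 and -3.90. The exception was mt-Atp8, with 4178 and 2139 (-0.79, -0.87 to -0.72). In the LPS pairs mt-Co1 ranged from -3.72 to -3.05 with a median of -3.47, so rest lay inside that range, and the level test in those libraries gave -3.37 ± 0.10 (SE, n = 7 pairs, edgeR adjusted p = 1.57e-14). All 13 mRNAs were called low in that test, where 41.8% of all genes were, and 12 of them 2-fold or more, where 16.4% were.

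Numbered zinc finger genes, mostly DNA-binding transcription factors, came next at a median of -1.05, with 86 of 169 at least 2-fold low and 4 high. Zfp106, the class member with the most input, had 4489 input and 1005 footprint counts (-1.99, -2.09 to -1.89). The lowest was Zfp329 with 174 and 8 (-4.27, -5.51 to -3.26), and the highest the short Zfp706 with 299 and 998 (1.91, 1.72 to 2.10), on 0.985% unique coding 29-mers. At like coding length the class stood at -0.91. In the LPS libraries 78 of the 169 were called at least 2-fold low and 4 high, where 16.4% and 8.63% of all genes were.

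The mRNAs listed for regulation by upstream reading frames or stress had a median of -0.90, with 12 of 27 at least 2-fold low and 0 high. Ppp1r15a, which encodes the stress-inducible subunit that dephosphorylates initiation factor eIF2, had 109 input and 6 footprint counts, 16.1-fold below the median gene (7.17 to 44.9). The transcription factor Atf4, the main effector of the integrated stress response, had 3158 and 635 (-2.14, -2.27 to -2.02). The 3 upstream ATGs of Atf4 shown above lie 475, 196 and 97 bases before its start codon, and the frame opened by the last runs for 59 codons and overlaps the Atf4 start codon out of frame. In the LPS pairs Atf4 ranged from -2.26 to -0.77, the highest value at 16 h.

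Related mRNAs were also low. Atf5, whose second upstream frame of 58 codons also overlaps the main start, had 112 and 23 counts (-2.11, -2.83 to -1.45). The constitutive Ppp1r15b had 1100 and 275 (-1.83), and Slc35a4, with 18 upstream ATGs in its annotated leader, 471 and 94 (-2.15). In the polyamine circuit, ornithine decarboxylase Odc1 had 5186 and 2178 (-1.08), its inhibitor antizyme Oaz1, read through a ribosomal frameshift, 3389 and 830 (-1.86), and the antizyme inhibitor Azin1 1165 and 539 (-0.94). The cationic amino acid transporter Slc7a1 was the highest of the class with 788 and 950 (0.44, 0.30 to 0.58). Apart from Ppp1r15a, Odc1 and Slc7a1, the class members named here were chosen with their values in view. In the LPS libraries, 12 of the 27 were called at least 2-fold low and 0 high, beside the same 16.4% and 8.63% of all genes.

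Selenoproteins, which are mostly redox enzymes, had a median of -0.70, and their values differed widely among themselves. Of the 13, 5 were at least 2-fold low and 1 high (38.5% and 7.69%, against 16.6% and 9.52% of all eligible genes). With a minimum of 200 input counts the class median was -1.44. With Ept1 added, 14 eligible genes had an in-frame TGA in the annotated coding sequence. Sephs2, which makes the selenium donor for selenocysteine, has its TGA at codon 63 of 452, and had 2178 input and 163 footprint counts (-3.57, -3.81 to -3.34). Glutathione peroxidase Gpx1 (codon 47 of 201) had 1336 and 201 (-2.56, -2.78 to -2.35), Selt (codon 49 of 195) 666 and 195 (-1.60, -1.84 to -1.37), and the lipid peroxidase Gpx4 (codon 73 of 197) 1247 and 421 (-1.39, -1.56 to -1.23). Only 16.1% of the coding 29-mers of Gpx4 were unique, so its counts are uncertain. Sephs2, Gpx1, Selt and Gpx4 stood below the median gene in every LPS pair, with highest values of -3.02, -2.31, -1.02 and -0.89. The level test put them at -3.36 ± 0.07, -2.50 ± 0.06, -1.39 ± 0.07 and -1.17 ± 0.05 (SE, 7 pairs).

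The selenoproteins with the TGA late in the reading frame ranged from -0.91 to 1.02. The methionine sulfoxide reductase Msrb1 (codon 95 of 116) had 93 and 167 counts (1.02, 0.64 to 1.40), and Vimp (codon 189 of 190) 365 and 473 (0.55, 0.35 to 0.75). Thioredoxin reductase Txnrd1 (codon 498 of 499) had 1221 and 576 (-0.91, -1.06 to -0.77), and its mitochondrial form Txnrd2 (codon 526 of 527) 139 and 136 (0.14). Another 3 with the TGA near the end, Selk (19.1% unique coding 29-mers), Ept1 and Selo, stood at 0.67, 0.56 and -0.70. In between lay Sep15 (codon 93 of 162) with 1113 and 843 (-0.23, -0.36 to -0.10) and Sepn1 (codon 428 of 557) with 74 and 69 (0.07, -0.42 to 0.56). Of the 7 genes with the TGA in the first 80% of the coding sequence, 5 were at least 2-fold low. Their group median of -1.39 was the value of Gpx4, whose counts are uncertain. Of the 7 with the TGA in the last 20%, 0 were at least 2-fold low, with a median of 0.55. The place of this division was chosen after the values were seen, as were the members outside the naming rule, and the difference was not tested. Sepw1 (codon 13 of 88) had 69 and 30 counts at rest (-1.03, -1.70 to -0.39). In the LPS pairs it ranged from -0.22 to 0.81, above rest in every pair. Sep15 and Sepn1 stood below rest in every LPS pair, at -0.71 to -0.52 and -0.70 to 0.06. The resting interval of Sepn1 reached into its LPS range, and that of Sep15 did not.

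**Figure D3:**
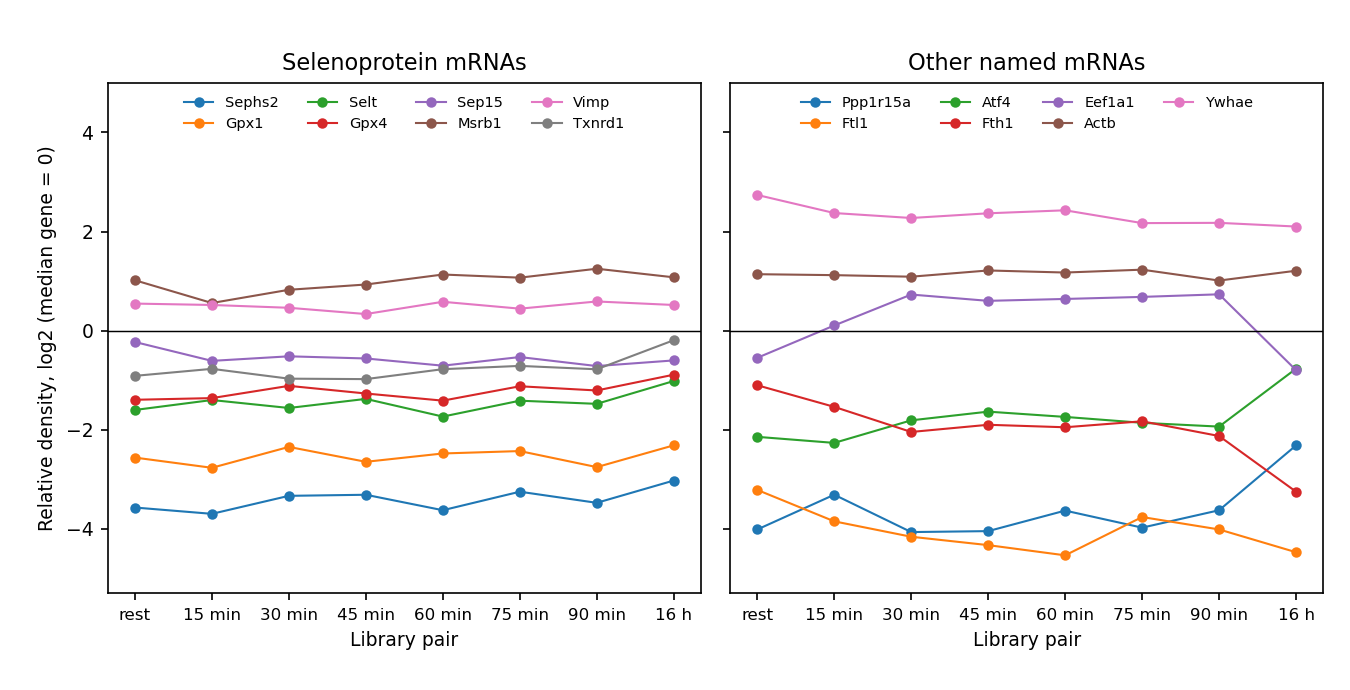
Relative density (y axis, log2, median gene at 0) of 15 mRNAs in the 8 library pairs (x axis), 1 point per pair, with selenoprotein mRNAs on the left and other named mRNAs on the right. Sephs2 lies between -3.70 and -3.02 in every pair, and Eef1a1 stands at -0.55 at rest, above 0 at 15 to 90 min and at -0.80 at 16 h.

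Iron-handling mRNAs had a median of -0.03, with 2 of 12 at least 2-fold low (16.7%, the share over all eligible genes being 16.6%). These 2 were the subunits of the iron store ferritin. The heavy chain Fth1 had 13532 input and 5599 footprint counts (-1.10, -1.15 to -1.06). The light chain Ftl1 had 188 and 18 (-3.21, with an upper interval bound of -2.51); only 4.20% of its coding 29-mers were unique, so its counts are uncertain. The transferrin receptor Tfrc, which imports iron, had 2746 and 3876 (0.67, 0.60 to 0.74), and the haem-degrading enzyme Hmox1 217 and 692 (1.85, 1.62 to 2.07). In the LPS pairs Fth1 stood lower than at rest, from -3.25 to -1.54. Ftl1 ranged from -4.53 to -3.76, which its resting interval reached into, and its difference did not pass the test of rest against LPS described below (0.83 ± 0.39, adjusted p = 0.534).

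Ribosomal protein mRNAs had a median of -0.39, with 0 of 76 at least 2-fold high and 8 low. The low share, 10.5%, was under the 16.6% of all eligible genes. Rpl4 and Rps3a1, with the most input, had 34365 and 30897 input and 20433 and 17522 footprint counts, densities of -0.58 and -0.65. The 8 low genes, named after their values were seen, were Rplp0, Rplp1, Rpsa, Rps2, Rpl9, Rpl12, Rpl13a and Rpl35. Rplp0, of the ribosomal stalk, had 27575 and 5472 (-2.16, -2.20 to -2.12). Coding sequences in this class are short, and against genes of like coding length its median was -0.97. Reads of these genes may be shared with copies, since 72 of the 76 had under 50% unique coding 29-mers; the median of the other 4 was -0.58. A run of at least 6 pyrimidines within 5 bases of the annotated start was found in 18 of the 56 with a RefSeq promoter entry (32.1%), against 641 of 6720 eligible genes (9.54%). Within the class the medians with and without such a run were -0.30 and -0.36, and over all eligible genes -0.03 and 0.01.

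Abundant but poorly loaded mRNAs were sought among the 853 genes with the most input (at least 1500 counts), of which 137 (16.1%) stood at least 2-fold low, near the share over all eligible genes, and 111 at least 2-fold high. Of the 137 low genes 72 were in the longest decile of coding lengths, against 167 of the 853 abundant genes and 1 of the 111 high ones. Median coding lengths were 4274 nt in the low, 1562 nt in all abundant and 741 nt in the high genes. An annotated upstream ATG was present in 83 of the 134 low genes matched to a coding sequence and 39 of the 111 high ones. Among all abundant genes so matched, 373 of 846 had one.

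The lowest 20 of the abundant genes in density, ranked without names of the Gm, Rik, Snhg, Snor and Mir kinds, included proteins of varied function. The actin-microtubule linker Macf1 (coding length 22068 nt) had 8246 input and 586 footprint counts, 12.5-fold below the median gene (11.5 to 13.6). The kinesin-like Stard9 (13686 nt) had 2153 and 152 (-3.65), the cytolinker Plec (14061 nt) 2282 and 336 (-2.59), and the scaffold protein Ahnak 13324 and 1956 (-2.60). Others were the deubiquitinase Usp34 (3587 and 393, -3.02), the nonsense-mediated decay kinase Smg1 (4358 and 686, -2.50), the channel-kinase Trpm7 (2823 and 436, -2.52) and the transcriptional coregulator Tcf20 (3659 and 288, -3.50).

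Shorter coding sequences were among the lowest too. The cadherin Cdh11 (2391 nt, 10 upstream ATGs) had 1576 and 82 counts (-4.09, -4.43 to -3.77). It was the lowest of the abundant genes so ranked that were matched to a coding sequence. Sephs2 and 7 mitochondrial mRNAs were also among the 20 lowest in density, the latter under the limit on their loading given above. RP23-92G13.4, named after a clone and not matched to a coding sequence, was lower still, with 1751 and 80 (-4.28). In the LPS pairs these mRNAs were low as well: Macf1 ranged from -3.33 to -2.31, Cdh11 from -4.63 to -3.37 and Tcf20 from -3.70 to -2.76.

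Of the 111 abundant and highly loaded mRNAs, 72 were in the 3 shortest deciles of coding length, against 246 of the 853 abundant genes. The 14-3-3 adaptor Ywhae had 2310 input and 13673 footprint counts, 6.67-fold above the median gene (6.38 to 6.97). The acidic histone chaperones Anp32b and Anp32e had 1547 and 1629 input and 9054 and 7362 footprint counts, densities of 2.72 and 2.35. Of the coding 29-mers of Anp32b 47.5% were unique, so its counts are uncertain. The disulphide isomerase Pdia3 had 3466 and 16883 (2.46, 2.40 to 2.51), the translation factor Eif5a 5297 and 19313 (2.04, 1.99 to 2.08), and Hnrnpa2b1 4896 and 17491 (2.01, 1.96 to 2.06). In the LPS pairs Ywhae ranged from 2.10 to 2.43 and Pdia3 from 1.55 to 2.18, below rest in every pair, though neither difference passed the test (0.40 ± 0.13, adjusted p = 0.242, and 0.56 ± 0.18, adjusted p = 0.228).

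Over the 8335 genes matched to a coding sequence, relative density differed with coding length and with upstream ATGs. From the shortest decile (114 to 543 nt) to the longest (3525 to 26400 nt), median relative density went from 0.80 to -0.80, and the share of genes at least 2-fold low from 3.11% to 40.8%. The Spearman correlation with coding length was -0.48 across genes, which are not independent replicates and share the 2 libraries; with input counts it was 0.07. Genes with no upstream ATG had a median of 0.25 (4216), those with 1 of -0.09 (1855), with 2 of -0.37 (874), with 3 to 4 of -0.46 (850) and with 5 or more of -0.65 (540). Within every decile of length, the median without an upstream ATG was above that with one, by 0.18 to 0.61. By the base 3 positions before the start codon, where vertebrate genes favour a purine, medians were 0.12 for A, -0.01 for G, -0.28 for C and -0.25 for T. No source used here says over which features reads were counted, so the part that leader and trailer reads have in the ratio was not tested.

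**Figure D4:**
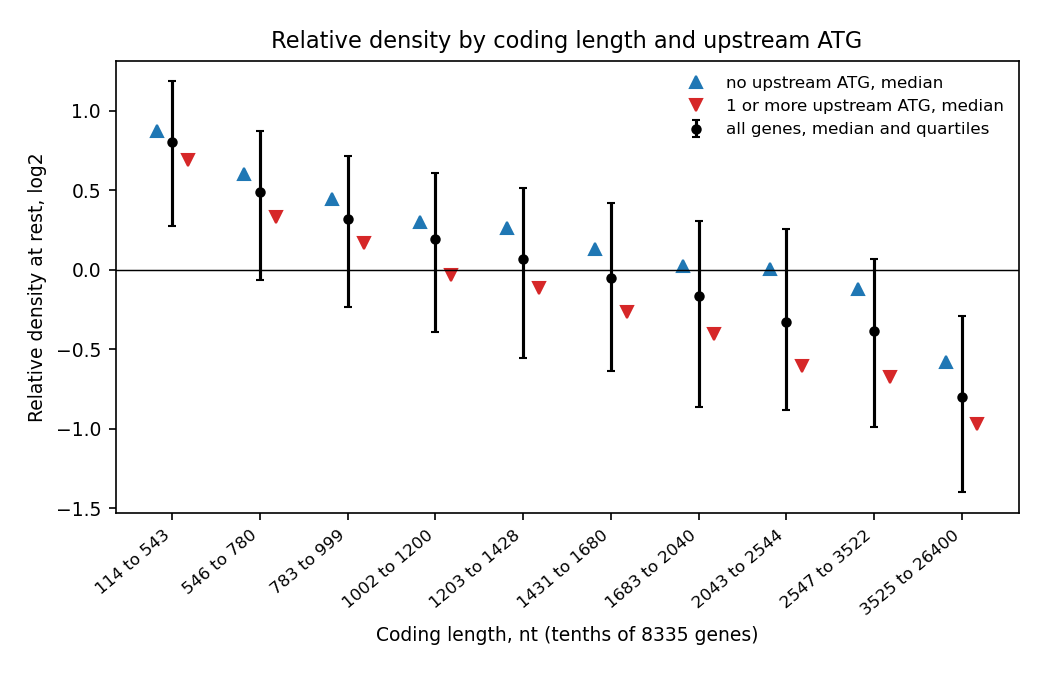
Relative density at rest (y axis, log2) by decile of coding length (x axis, nt); black points and bars are medians and quartiles over genes, blue triangles medians of genes with no annotated upstream ATG and red triangles of genes with 1 or more. Medians go from 0.80 in the shortest to -0.80 in the longest decile, and the blue triangle lies above the red in all 10.

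The resting order of mRNAs was close to that in the LPS libraries. The Spearman correlation between resting density and that of each LPS pair was 0.926 to 0.956 over the 8533 genes, which share transcript length, mapping and cell line in all pairs. Of the 812 genes at least 2-fold high at rest, 65.0% to 78.7% were so in each pair and 364 in all 7; of the 1414 low genes, 76.0% to 88.8% and 911. In the level test across the 7 LPS pairs, 627 of the 812 were called high by 2-fold or more and 1206 of the 1414 low, against 8.63% and 16.4% of all genes tested, and 0 were called on the other side. Called genes of 2-fold or more numbered 736 high and 1402 low in this test, or 358 and 1919 with scaling by total counts.

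A test of rest against 15 to 90 min of LPS asked which mRNAs were loaded differently in untreated cells. At an adjusted p under 0.05 (edgeR), 86 genes (1.01%) were lower at rest and 8 (0.0938%) higher. The spread came from the 6 LPS pairs alone: the single untreated pair is assumed to vary like them, and a shift of that pair cannot be told apart from a difference between the conditions. With the 16 h pair kept in the fit, or without the time point as a block, 0 genes passed (edgeR; 572 and 397 genes at an unadjusted p under 0.05, 793 as fitted; DESeq2 called 101). Among the genes called as fitted were 64 of the 76 ribosomal protein mRNAs and 11 of the 25 other TOP mRNAs, all lower at rest, with median differences of -0.83 and -0.53. Rpl9 stood lower by -1.27 ± 0.19 (SE, adjusted p = 0.00509), Eef2, the translocation factor, by -1.26 ± 0.20 (adjusted p = 0.00678) and Eef1a1 by -1.17 ± 0.20 (adjusted p = 0.00864). With the 16 h pair kept these 3 had adjusted p-values of 0.651 to 0.702. At 16 h the ribosomal protein median was -0.53, below its resting value, while it was 0.11 at 15 min and 0.43 to 0.59 from 30 to 90 min. Scaling by total counts gave 18 higher and 61 lower. Leaving out single LPS pairs gave 3 to 25 genes higher and 56 to 110 lower, with 25 higher without 15 min and 3 higher and 56 lower without 75 min. TOP calls numbered 6 without 60 or without 75 min and 7 without 90 min or with total counts. Untreated cells were sampled only at 0 min, so an LPS effect cannot be told apart from handling or from hours in culture.

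Calls of single genes outside the translation machinery rest on the same lone untreated pair. None of the calls named here held with the 16 h pair kept (adjusted p = 0.457 to 0.744) or without the block (0.201 to 1). Eno2, the neuronal form of enolase, had 77 input and 21 footprint counts at rest (-1.70) against -0.29 to 0.48 in the LPS pairs (-1.84 ± 0.38, adjusted p = 0.0199). The NF-κB regulator Nfkbid had 168 and 47 (-1.67) against -0.83 to -0.21 (-1.26 ± 0.29, adjusted p = 0.0448). The cytokine Tnf, named after its values were seen, had 156 and 47 (-1.56) against -0.38 to 0.87, and the difference did not pass (-1.83 ± 0.52, adjusted p = 0.143). Higher at rest than at 15 to 90 min was the cell cycle factor E2f1, at -0.53 against -1.73 to -1.45 (0.97 ± 0.21, adjusted p = 0.0260), while its value at 16 h, -0.20, was above rest. Also higher were the NuRD component Gatad2b (0.82 ± 0.17, adjusted p = 0.0275), the guanine nucleotide exchange factor Arhgef12 (0.78 ± 0.16, adjusted p = 0.0199), Fth1 (0.76 ± 0.17, adjusted p = 0.0317) and the deadenylase Cnot6 (0.69 ± 0.15, adjusted p = 0.0320). The remaining 3 were Atf1, Tmf1 and Ube2d2a, at 0.56 to 0.63. With a single LPS pair left out (45, 60, 75 or 90 min), the calls of Nfkbid and Cnot6 were lost, at adjusted p-values of 0.0515 to 0.0872 and 0.0515 to 0.0757. Those of Fth1 (45, 60 or 75 min, 0.0515 to 0.0693) and Gatad2b (75 min, 0.0526) were also lost, as were those of Tmf1 and Ube2d2a without most pairs. The call of Nfkbid was lost with total counts too (0.0719).

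**Figure D5:**
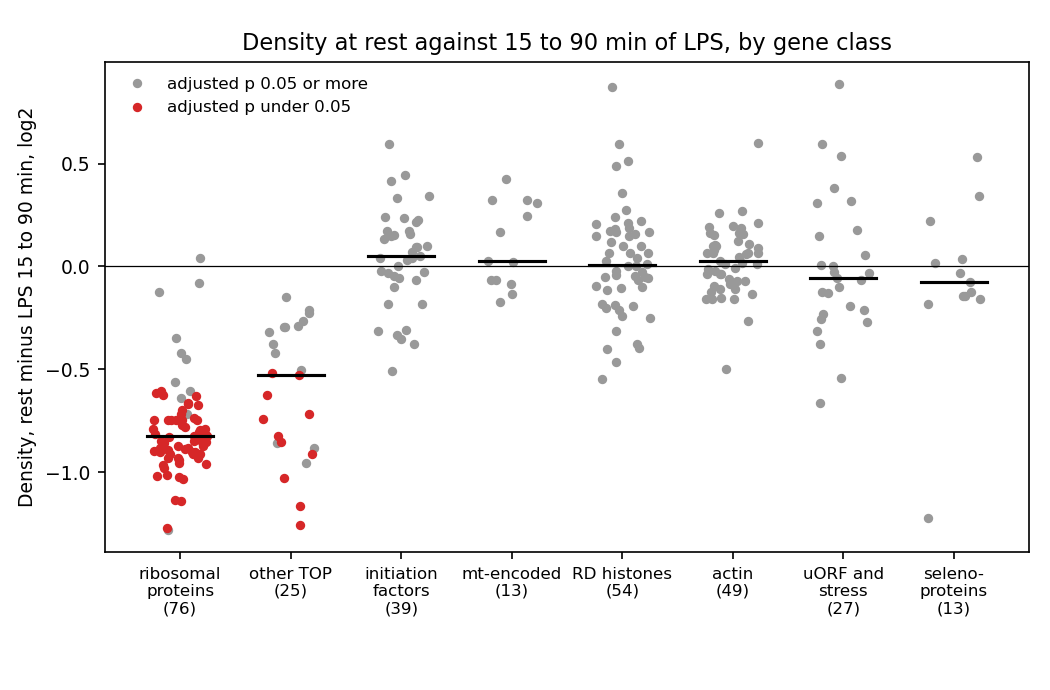
Fitted difference in density, rest minus 15 to 90 min of LPS (y axis, log2), for the genes of 8 classes (x axis, number of genes in brackets); each point is a gene, red where its adjusted p is under 0.05, and bars are class medians. The ribosomal protein and other TOP medians lie at -0.83 and -0.53, and those of the other 6 classes within 0.1 of 0.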

How the data were processed

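Ribosome footprint and input RNA libraries of RAW264.7 cells were analysed from a table of 13832 genes in 16 libraries. The authors deposited whole-number counts per gene, used for all results, and the same counts divided by size factors, a DESeq2-normalised signal per the file headers, used only to check scale. The submitters' processing notes name Bowtie 0.12.8, DESeq2 1.18.1 and mm10; for the counted features and shared reads, the tool settings were not given in the sources used here. Groups came from sample titles. Gene classes (36 lists; the noncoding list was not analysed here), members and the choice of this experiment were made with earlier results of these data known. Named genes were the 15 with most footprints and the lowest and highest 20 in density among the top 10% by input. The lists of 20 left out names that start with Gm and a digit, Snhg, Snor or Mir and a digit, or end in Rik. Also named were 2 by input plus the extremes of each class, and the 10 largest called differences each way. Sequence features came from 1 GENCODE M21 transcript per gene (8335 of 8533 matched), the APPRIS principal one with the longest coding sequence; for Ahnak it is a short isoform. Promoters came from RefSeq. Tests used edgeR 4.0.16 in R 4.3.3 (TMM factors, quasi-likelihood F-test, Benjamini-Hochberg adjustment over 8533 genes, time point as a block): the footprint-by-rest interaction over 14 libraries of 0 to 90 min (5 residual degrees of freedom), and footprints against input in the 14 LPS libraries (6). Footprint and input libraries of a time point came from 1 lysate, per the labels' protocols, which is what the block rests on. Labels do not say whether time points were separate cultures, so p-values measure the spread between these samples. A footprint count of 0 was set to 3. Scripts were tested on simulated data.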

Additional observations from a re-analysis of the deposited data

How the results depend on the processing

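Resting values rest on 1 pair of libraries, class lists overlap, and equal library totals hide the depth; genes with near-identical copies and the unstated counted features limit single values. Counts of genes at least 2-fold high were 506 with a minimum of 200 input counts, 507 where the counting interval had to pass and 511 against genes of like coding length; for 2-fold low, 885 with the interval. Scaling by total counts moved the median gene by -0.17, which put class medians at -0.56 (ribosomal proteins), -3.03 (mitochondrial), 1.00 (histones), 0.70 (hnRNP and SR) and 0.89 (actin). A minimum of 200 input counts gave -2.90 (mitochondrial) and -1.44 (selenoproteins). Both alternatives that follow were added after seeing the data. Centred on like coding length, the medians were -0.97, -3.11, 0.48, 0.79 and 0.76 in the first order; among members with at least 50% unique 29-mers they were -0.58 (ribosomal proteins), -1.81 (mitochondrial), 0.86 (histones) and 0.87 (actin). Of the 25 other TOP mRNAs, 14 had under 50% unique coding 29-mers. As shares of eligible counts, footprint shares were 6.62% (ribosomal proteins), 3.17% (hnRNP and SR), 0.291% (zinc fingers) and 3.74% (actin).

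In the test of rest against LPS, without the replicate block (no time point term) and with the 16 h pair kept, 0 genes were higher, 0 lower, 0 ribosomal protein and 0 TOP genes called. Total counts gave 18 higher at rest and 7 TOP genes. Leaving out each LPS pair gave 3 to 25 genes higher (25 without 15 min, 13 without 30 min, 3 without 75 min) and 56 to 110 lower, 56 without 75 min; TOP genes numbered 6 to 15, with 6 without 60 or 75 min and 7 without 90 min. In the level test, total counts gave 358 genes at least 2-fold high against 736, and turned the sign of 13 of the genes the rule names: Atp5b (-0.073), Cenpa (-0.14), Eprs (-0.24), Fasn (-0.073), Mcl1 (-0.11), Mrpl12 (-0.20), Mrpl3 (-0.19), Ndufb5 (-0.12), Psmd2 (-0.19), Psmg4 (-0.19), Rpn1 (-0.16), Tcp1 (-0.057) and Top2a (-0.15). The cause of these shifts was not tested.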

Other observations

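Medians of several further classes in resting macrophage-like cells lay above the median gene. Macrophage surface receptors and identity genes (50) had a median relative density of 0.29. In this class 9 were at least 2-fold high and 3 low (18% and 6%, against 9.52% and 16.6% of all eligible genes). The Fc receptor γ chain Fcer1g, which signals for several immune receptors, had 751 input and 2187 footprint counts (1.71, 1.59 to 1.84), and the integrin Itga4 16793 and 11633 (-0.36, -0.39 to -0.32). The interferon-γ receptor chain Ifngr2 was the lowest, with 508 and 148 (-1.61, -1.88 to -1.34). The 13 cytokine and chemokine mRNAs eligible at rest had a median of 0.77, with 4 at least 2-fold high and 2 low. These are 30.8% and 15.4%, the low share being near that over all eligible genes. The macrophage migration inhibitory factor Mif had 4630 and 12852 (1.65), on 8.13% unique coding 29-mers, and osteopontin Spp1 1269 and 3387 (1.59). The growth factor Vegfb was the lowest with 82 and 18 (-2.02, -2.84 to -1.27). MHC class I and antigen processing genes (19) stood at 0.59, with β2-microglobulin B2m highest (2785 and 7683, 1.64) and the class I transactivator Nlrc5 lowest (189 and 26, -2.69). Against genes of like coding length, the medians were 0.24 (macrophage genes), 0.17 (cytokines and chemokines) and 0.33 (MHC class I and antigen processing).

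Proliferation classes lay above the median gene: DNA replication (48) stood at 0.56 and mitosis (46) at 0.35, where the long proliferation marker Mki67 was the lowest with 7679 and 2485 (-1.46) and the ubiquitin-conjugating enzyme Ube2c the highest with 945 and 1933 (1.20). Antioxidant and NRF2 targets (18) stood at 0.60, with peroxiredoxin Prdx1 at 5707 and 14246 (1.49). Among initiation factors outside the TOP list (39, median 0.51), the start-codon selection factor Eif1 was highest, with 275 and 2183 (3.16, 2.98 to 3.35; 1.91% unique coding 29-mers, so its counts are uncertain), and the eIF2 kinase Eif2ak3 lowest, with 291 and 102 (-1.34). ATF4 targets (15) stood at 0.54, unlike Atf4 itself. At like coding length, DNA replication stood at 0.55, mitosis at 0.57 and antioxidant and NRF2 targets at 0.26. Initiation factors outside the TOP list then stood at 0.35 and ATF4 targets at 0.30. No difference between these classes was tested.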
